A study of Mus musculus with 18 samples.

Results

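Mouse embryoid bodies from knock-in cells with a FLAG tag on otherwise wildtype EED (FLAG-WT) were compared between day 6 and day 10 of differentiation. The comparison used 4 of the 18 RNA-seq libraries of the series, 2 per day, and every gene of the table. EED belongs to the core of PRC2, the Polycomb complex that methylates lysine 27 of histone H3. The series set these cells beside knock-in cells in which lysine 19 of FLAG-EED was replaced by arginine (K19R). Both lines were sampled as stem cells at day 0 in medium with LIF and 2i, and as embryoid bodies at days 2, 6 and 10 after LIF and 2i were withdrawn. The medium held serum, and the bodies were kept in low-attachment plates on a rotary shaker. The FLAG tag is shared by both lines. The labels do not state how many clones stand behind a line or whether the 2 libraries of a day were separate cultures; p-values therefore measure the spread between these libraries, which may be technical.

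An embryoid body is a floating aggregate of stem cells that forms, without an embryo's axis, derivatives of the epiblast inside and of the primitive endoderm outside. Primitive endoderm gives visceral endoderm, an absorptive epithelium that takes up protein through the receptors cubilin and megalin, degrades it in large lysosomes and secretes serum proteins, and parietal endoderm, which lays down a thick basement membrane. The pluripotency network keeps cells of the epiblast undifferentiated and is shut down as they leave that state. PRC2 holds developmental genes, such as the Hox clusters, silent.

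The 4 libraries held between 20452195 and 28169697 counts. Across genes, log2 CPM (counts relative to library size, with a correction for composition) of the 2 libraries of a day had a Pearson correlation of 0.9975 at day 6 and 0.9966 at day 10; genes are not independent replicates. In a principal component analysis of the 8 FLAG-WT libraries, the first component took 79.2% of the variance and ordered the libraries by day without overlap. The spread was estimated from all 16 FLAG-EED libraries together. Chi-square per degree of freedom, which sets the spread of a group's libraries against counting error, was 3.87 at day 6 and 11.4 at day 10. It was 2.31 and 3.35 at FLAG-WT days 0 and 2, and 5.57 and 8.7 at K19R days 6 and 10. A shared estimate can therefore understate the error at day 10. A library outside the comparison stood apart: FLAG-WT day 0 replicate 2 held 55.0 CPM of Afp against 1.78 CPM in replicate 1, and endoderm genes such as Afp had smaller errors without it. Genes of a red blood cell list summed to 2.92 to 4.04 CPM in the 4 libraries, so red cell transcripts were close to absent. As these are bulk samples, fewer cells of a type and less RNA per cell cannot be told apart.

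Between day 6 and day 10, 8432 of 19092 genes tested changed (44.2%; edgeR quasi-likelihood test, Benjamini-Hochberg adjusted p below 0.05), 4051 upwards (21.2%) and 4381 downwards (22.9%). A change of at least 2-fold was found for 2678 genes (14%), 1273 higher (6.67%) and 1405 lower (7.36%). The median log2 change over all genes tested was -0.03. The libraries of the days did not overlap for 67.7% of genes. Most large changes were of weakly expressed genes: of the 131 genes with at least 1000 CPM in the higher day, 9 rose and 5 fell at least 2-fold, whereas of the 4151 genes between 1 and 10 CPM the numbers were 568 and 629. The share of upward calls was 48% and came to 52.8% with RLE size factors, 53.1% with DESeq2 and 45.1% with library totals alone, so which direction held more genes depended on the scaling. Short genes fell more often than they rose: in the shortest of 5 equal classes by exon length, 9.09% rose and 17.3% fell, against 27.9% and 24.8% in the longest.

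**Figure D1:**
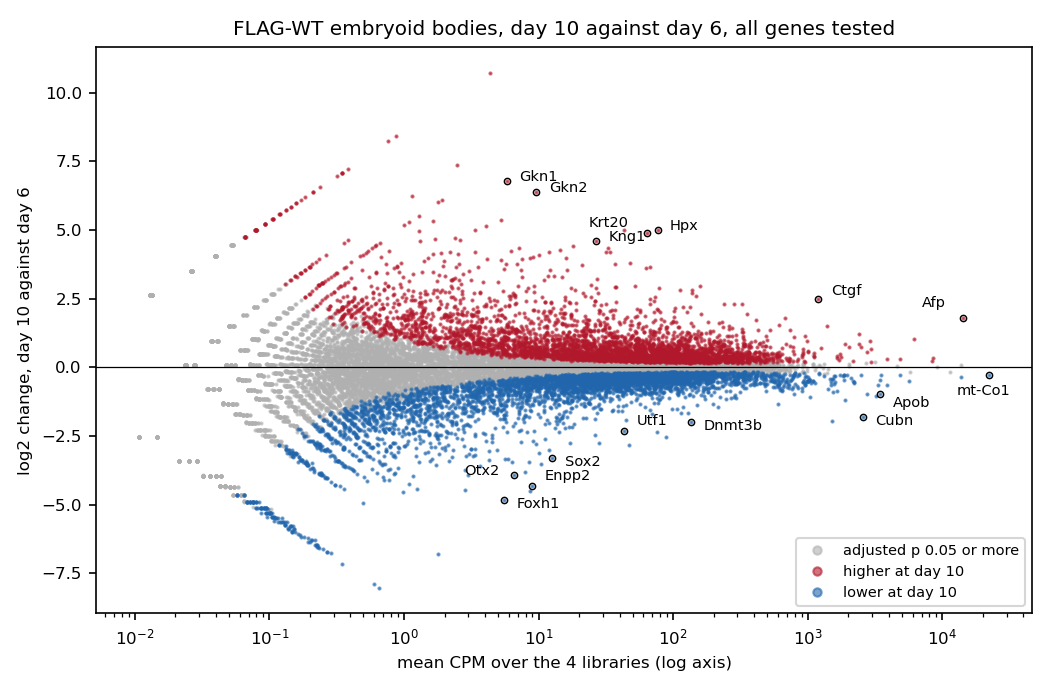
Each point is 1 of the genes tested; the horizontal axis is its mean CPM over the 4 FLAG-WT libraries of days 6 and 10 (log axis) and the vertical axis its log2 change from day 6 to day 10. Red points were higher and blue points lower at an adjusted p below 0.05, grey points did not pass; Afp rose from a high level, and the largest changes lie among genes with few counts.

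The largest rises among well-measured genes included those of stomach and mucosal proteins and of plasma proteins. Gkn1 and Gkn2 encode gastrokines, secreted proteins of the stomach lining. Gkn1 (chromosome 6, 87345650 to 87350942, GRCm38) had 1 and 3 counts at day 6 and 176 and 258 at day 10, a ratio of 116 after scaling (95% interval 44.9 to 427, counting error only). Its mean had been 3.0 CPM at day 2, above the 0.109 CPM of day 6 and below the 11.5 CPM of day 10. Gkn2, its neighbour on chromosome 6, had 5 and 4 counts at day 6 and 323 and 394 at day 10, a ratio of 85.1 (44.6 to 187). Hpx, the heme-binding plasma protein hemopexin, stood at 4.94 and 4.14 CPM at day 6 and 136 and 161 CPM at day 10. Both day 10 libraries were far above both day 6 libraries, and the log2 change was 5.02 ± 0.17, adjusted p = 2.65e-17. Krt20, a keratin of gut epithelium, went from 4.34 and 3.97 to 111 and 135 CPM (log2 change 4.88 ± 0.18). Kng1, the plasma precursor of the kinins, had 2.15 and 2.04 CPM at day 6 and 47.4 and 55.8 CPM at day 10 and rose by 4.62 ± 0.22 on the log2 scale. Mucl3, which encodes a mucin-like protein, rose by 5.01 ± 0.22, and Vtn, the adhesion protein vitronectin of plasma and matrix, by 4.26 ± 0.27. Serpind1, the thrombin inhibitor heparin cofactor, had 10 counts over both day 6 libraries and 391 over both day 10 libraries, a ratio of 41.8 (22.5 to 87.8). Ptgs2, the inducible prostaglandin synthase, went from 0.558 and 0.817 to 14.4 and 12.8 CPM, after a mean of 4.40 CPM at day 2. Serpinb6b (4.33), the interferon-induced Ifi27 (4.24) and the organic anion exporter Abcc3 (4.21) complete the 12 largest log2 rises. The libraries of the days did not overlap for any of these genes, which the choice of genes required.

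The largest falls included those of epiblast regulators and of secreted enzymes. Foxh1, the DNA-binding partner of SMADs in Nodal signalling, stood at 11.3 and 10.0 CPM at day 6 and 0.418 and 0.321 CPM at day 10, after 101 ± 1.86 CPM (SD, n = 2) at day 2. The log2 change was -4.84 ± 0.23, adjusted p = 7.45e-15. Otx2, a homeodomain factor of epiblast, anterior visceral endoderm and forebrain, had 13.9 and 10.9 CPM at day 6 and 0.522 and 1.12 CPM at day 10, a log2 change of -3.92 ± 0.22. It had been 262 ± 9.17 CPM at day 2, so most of its decline came before day 6. Ptgds, a prostaglandin D synthase, went from 16.1 and 16.8 to 0.627 and 0.803 CPM, having been at 0.315 ± 0.14 CPM at day 2. Enpp2 encodes autotaxin, the secreted enzyme that makes lysophosphatidic acid and is strongly expressed in visceral endoderm, and went from 17.4 and 16.8 to 0.679 and 1.02 CPM (log2 change -4.33 ± 0.27). Sox2, a core pluripotency factor, had 25.9 and 19.9 CPM at day 6 and 2.09 and 2.57 CPM at day 10 and fell by 3.31 ± 0.16 on the log2 scale. Dppa4 (-3.11), a chromatin protein of pluripotent cells, Apln (-3.81), the ligand of the apelin receptor, Plac1 (-3.51), a placental surface protein, Adam23 (-3.46), Bhmt2 (-3.45), a methionine-making methyltransferase, Lrrc19 (-3.36) and the G protein subunit Gng2 (-3.36) complete the 12 largest log2 falls.

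Measured per exon length, the protein-coding genes among the 10 with the highest mean CPM were led by mitochondrial mt-Co1 at 15800 CPM per kilobase of exon at day 6 and 13150 at day 10; Afp had 1889 and 6614. Afp (chromosome 5, 90490737 to 90508907) encodes alpha-fetoprotein, the main serum protein of visceral endoderm and fetal liver. Its libraries read 6212 and 6516 CPM at day 6 and 21770 and 22780 CPM at day 10. The log2 change of Afp was 1.81 ± 0.46, adjusted p = 0.00222, and without FLAG-WT day 0 replicate 2 its standard error was 0.13 and its adjusted p 2.63e-12 (0.0353 with DESeq2, the highest of the alternatives tried). Per exon length, Afp lay below Eef1a1, Apoe, Actg1 and Sparc at day 6 and above them at day 10. The 10 genes with the highest mean CPM also held H19, an imprinted non-coding RNA (13750 and 13190 to 13820 and 14380 CPM), the lipoprotein gene Apoe (12550 and 11740 to 10550 and 11050 CPM), the matrix gene Sparc (9150 and 9232 to 8362 and 10030 CPM) and the imprinted non-coding RNA Meg3 (5669 and 6526 to 4929 and 5766 CPM), none of which passed the test. Eef1a1, the translation elongation factor, fell by 0.34 ± 0.08 on the log2 scale, and mt-Co1 by 0.27 ± 0.10. Col4a1 (type IV collagen, 0.34 ± 0.09), Actg1 (cytoplasmic actin, 0.24 ± 0.08) and Peg10 (a retrotransposon-derived imprinted gene, 1.03 ± 0.10) rose. Without day 10 replicate 2 neither Col4a1 nor Actg1 was called, and mt-Co1 lost its call in 4 of 13 alternatives.

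**Figure D2:**
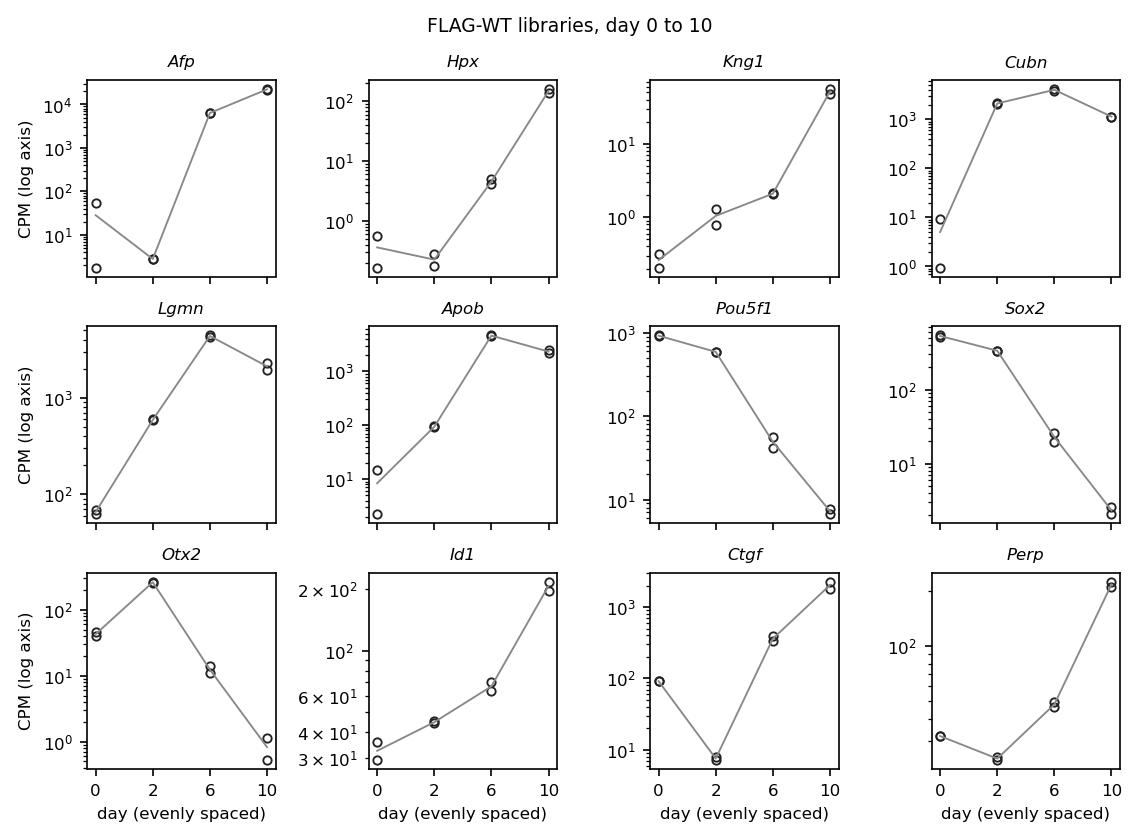
CPM (log axis, a scale of its own in each panel) of 12 genes in the 8 FLAG-WT libraries at days 0, 2, 6 and 10; circles are libraries and the line joins the means of 2. Afp, Hpx, Kng1, Id1, Ctgf and Perp were higher at day 10 than at day 6, Cubn, Lgmn and Apob were lower after a rise up to day 6, and Pou5f1, Sox2 and Otx2 were lower at day 10 than at any earlier day.

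More secretory products of the endoderm rose than fell. Of 30 serum and lipoprotein genes tested, 14 were higher and 3 lower, with a median log2 change of 0.40. Of 16 complement and acute phase genes 7 were higher and 0 lower (median 0.72; 9 did not pass). Beside Hpx, the complement protease Cfi (3.44 and 3.62 to 64.6 and 64.5 CPM, log2 change 4.20 ± 0.17) and the hyaluronan-binding Itih2 (3.18 and 2.69 to 37.9 and 40.6 CPM, 3.73 ± 0.20) had the most marked rises of that list. The fibrinogen chains moved together: Fga 0.88, Fgb 0.79 and Fgg 0.64 on the log2 scale. In DESeq2, Fga, Fgb, Apoa2 and Apob were not called. Apoa2, an apolipoprotein of high-density lipoprotein, went from 296 and 289.5 to 749 and 745 CPM (1.35 ± 0.14). By contrast, Apoa1 (1968 and 1933 to 2081 and 2172 CPM; 0.12 ± 0.24, adjusted p = 0.716), the thyroxine carrier Ttr (1141 and 1208 to 1162 and 1026 CPM; -0.10 ± 0.26, adjusted p = 0.79) and Apoe (-0.17) did not pass. The 3 that fell were Apob (4513 and 4664 to 2454 and 2188 CPM), the structural protein of chylomicrons and other large lipoproteins, Mttp (-0.72), which loads lipid onto it, and Amn (-0.59), the membrane partner of cubilin. Alb, the main plasma protein of liver, stood at 0.515 and 0.584 CPM at day 6 and 0.835 and 0.589 CPM at day 10, close to the detection limit.

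The uptake machinery of visceral endoderm fell. Of 14 endocytic genes tested 10 were lower and 2 higher (median -0.51). Cubn (chromosome 2, 13276338 to 13491813) encodes cubilin, the receptor that takes up vitamin B12 with intrinsic factor, albumin and apolipoprotein A-I. It stood at 3842 and 4178 CPM at day 6 and 1138 and 1141 CPM at day 10, a log2 change of -1.81 ± 0.24, adjusted p = 8.04e-07, after 2109 ± 72.6 CPM at day 2. The adaptor Dab2 went from 4064 and 4048 to 2799 and 2330 CPM (-0.66 ± 0.12), and Lrp2, encoding megalin, from 1066 and 1107 to 750.4 and 823 CPM (-0.47 ± 0.11). Amn is part of this list too, as is the homeobox gene Rhox5, which fell. Those higher were the clathrin light chain Cltb (0.58) and the retinol transporter Stra6 (1.32). Of 24 lysosomal enzymes and proton pump subunits, 16 were lower and 2 higher (median -0.37). Lgmn, the asparagine-specific protease legumain, stood at 4434 and 4284 CPM at day 6 and 1957 and 2267 CPM at day 10. Its log2 change was -1.04 ± 0.09, adjusted p = 4.4e-10, and the libraries of the days did not overlap. The cathepsin gene Ctsl went from 3900 and 4071 to 2802 and 2914 CPM (-0.48 ± 0.07) and Ctsc from 1039 and 1060 to 547 and 532 CPM (-0.96 ± 0.11). Ctsd (0.23) and the saposin precursor Psap (0.42) were the members that rose, and both lost the call without day 10 replicate 2. Lgmn and Glb1 belong to both lists.

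Regulators of primitive and visceral endoderm moved in both directions. Of 17 tested, 8 were higher and 4 lower (median 0.19), 2 and 3 of them at least 2-fold. Gata4 had 335 and 298 CPM at day 6 and 427 and 373 CPM at day 10 (0.34 ± 0.08, adjusted p = 0.0017) and Foxa2 137 and 123 CPM at day 6 and 169 and 169.7 CPM at day 10 (0.38 ± 0.09, adjusted p = 0.00125). Gata6 (-0.07, adjusted p = 0.498) and Hnf4a (-0.32, adjusted p = 0.0579), a nuclear receptor that drives liver and visceral endoderm genes, did not pass. The members that fell were Otx2, Sox7 (-1.28), the transcriptional coactivator Cited1 (392 and 370.2 to 182 and 179 CPM) and the growth factor receptor Pdgfra (-0.42). Onecut1, a hepatic factor at a low level, went from 0.386 and 0.525 to 1.98 and 1.12 CPM. Gata4 and Foxa2 were not called without day 6 replicate 2, which left 5 regulators higher, and neither was Onecut1 without day 10 replicate 1. Hnf4a was called lower without day 10 replicate 1, without FLAG-WT day 0 replicate 2 and in 2 other alternatives.

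Most genes of a joint list for parietal endoderm and basement membrane rose: 14 of 18 were higher and 3 lower (median 0.61). The list summed to 31580 and 32630 CPM at day 6 and to 35330 and 43490 CPM at day 10, so the rise was larger in day 10 replicate 2. The laminin chains Lama1 (1760 and 1937 to 2586 and 3638 CPM), Lamb1 (2193 and 2287 to 2886 and 3703 CPM) and Lamc1 (1666 and 1801 to 2677 and 3477 CPM) had log2 changes of 0.75 ± 0.13, 0.56 ± 0.10 and 0.83 ± 0.11. Thbd, the thrombomodulin gene, had the largest rise of the list (0.945 and 1.05 to 5.01 and 5.78 CPM). Sparc did not pass, and the 3 lower members were the intermediate filament gene Vim (-1.12), the nidogen gene Nid2 (-0.85) and Pth1r (-0.71), the receptor for parathyroid hormone-related peptide. Of 14 gut epithelium genes 8 were higher and 1 lower (median 0.66): the trefoil peptide Tff3 went from 5.15 and 5.14 to 72.3 and 66.5 CPM (3.75 ± 0.14) and the microvillus protein Vil1 from 226 and 236 to 298 and 294 CPM (0.36 ± 0.07), and the lower gene was the fatty acid binding protein Fabp1 (-1.26). Epcam, an epithelial adhesion gene, went from 271 and 265 to 327 and 373 CPM. Cdx2, the intestinal homeobox regulator, did not pass (17.9 and 14.6 to 17.2 and 11.6 CPM).

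**Figure D3:**
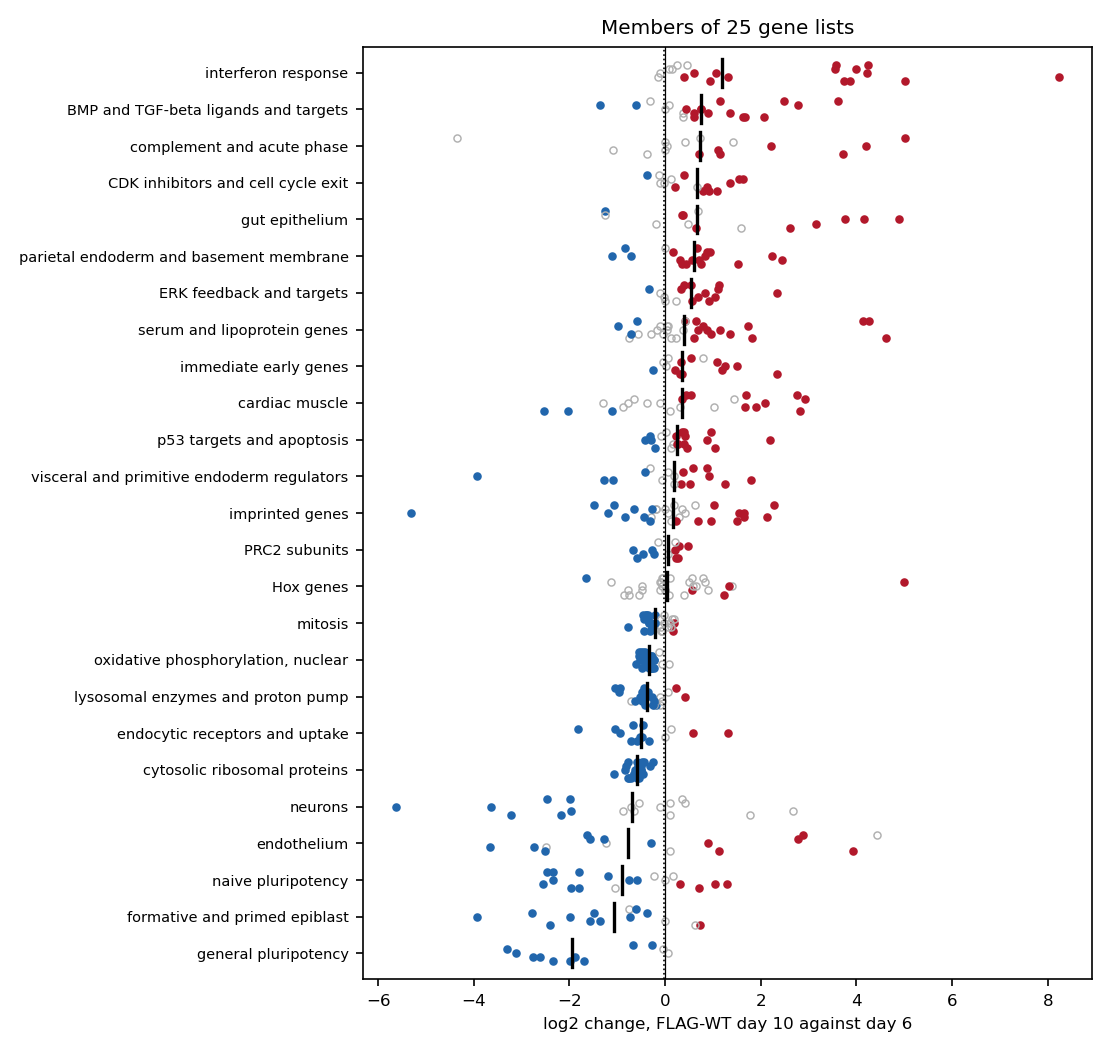
Log2 change from day 6 to day 10 (horizontal axis) of every tested member of 25 gene lists (rows, ordered by median). Filled red and blue points were higher or lower at an adjusted p below 0.05 and open grey points did not pass; black bars are list medians and the dotted line is the median of all genes tested. Interferon genes have the highest median and general pluripotency genes the lowest.

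Most pluripotency genes were lower at day 10 than at day 6. In the list of general pluripotency factors 10 of 12 were lower and 0 higher (median -1.94). Pou5f1, which encodes OCT4, had 56.5 and 41.9 CPM at day 6 and 6.74 and 7.76 CPM at day 10 (-2.77 ± 0.14, adjusted p = 1.67e-14), from 923 ± 17 CPM at day 0. Utf1 went from 78.8 and 64.9 to 11.6 and 16.9 CPM, and the DNA methyltransferase gene Dnmt3b from 219.7 and 211 to 54.1 and 54.4 CPM (-1.99 ± 0.08). Lin28a, an RNA-binding protein that blocks let-7 processing, stayed abundant, with 605 and 584 CPM at day 6 and 388 and 359 CPM at day 10 (-0.67 ± 0.08). It had been at 173 ± 2.14 CPM at day 0 and 247 ± 16.9 CPM at day 2. Trim71, a let-7 target, went from 346 and 356 to 301 and 279 CPM, after 262 ± 5.25 CPM at day 0 and 202 ± 7.85 CPM at day 2. Lin28a and Trim71 were thus both highest at day 6. Lin28a rose at each step up to that day, whereas Trim71 was lower at day 2 than at day 0. Sall4 (0.06) and L1td1 (-0.04) did not pass. Of 18 naive pluripotency genes 10 were lower and 4 higher (median -0.90). The member with the highest CPM, Stat3, did not pass (349 and 368 to 348 and 367 CPM). Nanog had 13.7 and 9.28 CPM at day 6 and 6.21 and 3.91 CPM at day 10 (-1.20 ± 0.17, adjusted p = 2.52e-06). Dppa5a went from 168 and 136 to 24.3 and 27.5 CPM and Esrrb from 17.9 and 12.6 to 3.19 and 2.94 CPM. The 4 that rose were Socs3 (68.3 and 66.6 to 164 and 166 CPM), a feedback inhibitor of STAT3, and the factors Klf4 (96.7 and 98.9 to 201 and 199.8 CPM), Klf2 (0.70) and Tfcp2l1 (0.31). Among 14 formative and primed epiblast genes 10 were lower and 1, Car14 (0.74), was higher (median -1.07). Its members with the highest CPM were Dnmt3b, given above, and Dnmt3a, which did not pass (145 and 152 to 154 and 144 CPM). Fgf5, a marker of primed epiblast, and Nodal, the ligand that patterns it, were low at day 6 (1.72 and 1.17 to 0.104 and 0.321 CPM and 10.1 and 8 to 3.45 and 3.64 CPM).

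Targets of BMP and TGF-beta were among the groups that rose. Of 21 ligands and targets tested, 14 were higher and 2 lower (median 0.76). Ctgf, a matricellular protein induced by TGF-beta and by YAP, had 387 and 335 CPM at day 6 and 1786 and 2278 CPM at day 10 (2.49 ± 0.11, adjusted p = 3.12e-15), and the day 10 libraries lay well above both day 6 values. The BMP-induced inhibitors of differentiation Id1 (70.7 and 63.3 to 217 and 196 CPM; 1.62 ± 0.08) and Id2 (193 and 201 to 321 and 279.6 CPM; 0.61 ± 0.07) rose, as did the inhibitory SMAD gene Smad6 (5.32 and 4.09 to 23.3 and 16.5 CPM; 2.06 ± 0.16). Of the ligands, Tgfb2 went from 1.25 and 1.58 to 10.7 and 8.46 CPM and Bmp2 from 11.5 and 8.87 to 17.7 and 13.5 CPM, while Nodal (-1.37) and Bmp7 (-0.62) fell. Of 16 ERK feedback genes and targets 11 were higher and 1, Spry1 (-0.33), lower (median 0.55): Fosl1, encoding the AP-1 subunit FRA1, went from 4.89 and 3.09 to 20.4 and 21.1 CPM (2.35 ± 0.21), Myc from 43.1 and 39.9 to 93 and 89.6 CPM (1.14 ± 0.09) and the phosphatase gene Dusp5 from 95.1 and 94.3 to 181 and 211 CPM. Of the ERK genes with the highest CPM, Epha2 went from 185 and 177 to 261 and 263 CPM and Etv5 did not pass (244 and 237 to 264 and 207 CPM), though it was called lower without day 10 replicate 1 (adjusted p = 0.0382). Of 15 immediate early genes 10 were higher and 1, Jund (-0.24), lower (median 0.36). Cyr61, which like Ctgf encodes a matricellular CCN protein, had 736 and 705 CPM at day 6 and 1927 and 2176 CPM at day 10 (1.51 ± 0.09, adjusted p = 2.71e-13). Fos went from 69.9 and 81 to 164 and 179.8 CPM and Nr4a1 from 94.1 and 95.4 to 171 and 232 CPM; Egr3 had the largest rise of the list (0.902 and 0.817 to 4.18 and 4.55 CPM; 2.33 ± 0.33). Klf6 (559.8 and 575 to 554 and 586 CPM), Jun (0.07) and Ier2 (-0.05) did not pass. Egr1 is on both of these lists. Without day 10 replicate 1, 3 ERK genes were called lower. Jund was not called under RLE size factors, in DESeq2 or without day 10 or day 6 replicate 1, and Bmp2 not without day 10 replicate 1 or day 6 replicate 2.

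Interferon response genes had the highest median of the 25 lists, 1.19, with 14 of 20 tested members higher and 0 lower. Of the 14, 9 had a mean below 1 CPM at day 6. Ifit1, a sensor of foreign RNA, had 0 and 0 counts at day 6 and 36 and 22 at day 10. At day 2 it had been at 1.28 ± 0.34 CPM (SD, n = 2), near its 1.53 ± 0.50 CPM at day 10. Taking 3 counts in each library as the floor, it was at least 10.1-fold higher at day 10. Isg15, a ubiquitin-like modifier, went from 0.258 and 0.175 to 3.6 and 4.82 CPM, Ifit3 from 1.42 and 0.525 to 13.4 and 19.3 CPM, Irf7, the factor that amplifies interferon expression, from 0.0859 and 0.292 to 2.14 and 3.1 CPM, and Usp18, which removes ISG15, from 1.12 and 0.525 to 10.2 and 10.3 CPM. The more abundant members rose less: B2m, the light chain of MHC class I, had 319 and 322 CPM at day 6 and 586 and 635 CPM at day 10 (0.93 ± 0.07, adjusted p = 8.91e-11), and the antiviral enzyme gene Rsad2 28.3 and 30.9 CPM at day 6 and 71.5 and 76.4 CPM at day 10 (1.32 ± 0.11, adjusted p = 3.65e-10). Bst2 (294 and 299 to 268 and 265 CPM), H2-K1, Stat2, Irf1 and Oas1a were among the 6 that did not pass. The list summed to 1162 and 1185 CPM at day 6 and to 1613 and 1740 CPM at day 10.

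**Figure D4:**
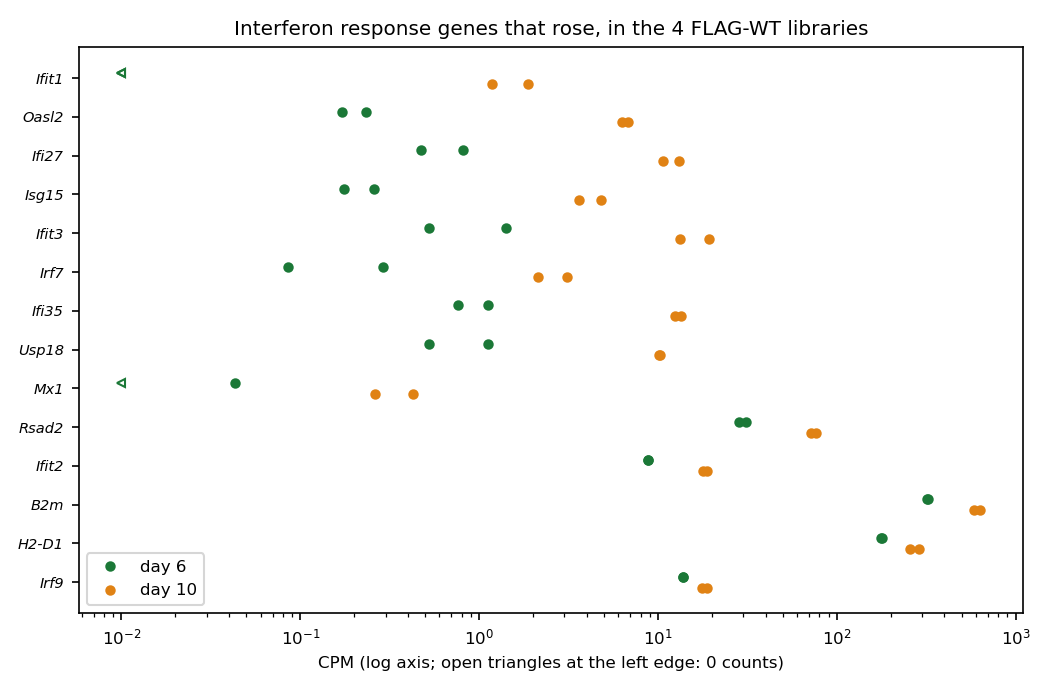
CPM (log axis) of the 14 interferon response genes that rose, in each FLAG-WT library, green for day 6 and orange for day 10; open triangles at the left edge mark 0 counts. The members with the largest changes were near the floor at day 6.

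The promoters of 4 of these genes are shown, since an element known from interferon-induced genes recurs in the list's promoters. RefSeq promoter windows of 300 bases (250 before and 50 after the start, GRCm38.p6) were found for 16 of the 20 genes, 20 windows in all. The interferon-stimulated response element was searched on both strands as GAAA, any 2 bases and GAAA again, a motif chosen after the values were seen. It was present in 40% of the list's windows and in 3.44% of all 32851 windows of the table. Of 5 other lists, the ribosomal protein genes had it in 22.7% of 22 windows, and the remaining 4 lists in 0 to 4.17%. By gene, 5 of 11 members that rose and 3 of 5 that did not pass had a match. Printed are the 250 bases before the start site of the 4 risen members with a match and the highest mean CPM, 5′ to 3′ on the gene's own strand, with matches in capitals: B2m (chr2:122147437-122147686, plus strand, GRCm38.p6), Rsad2 (chr12:26456453-26456702, minus strand), Ifit3 (chr19:34583279-34583528, plus strand) and Isg15 (chr4:156200819-156201068, minus strand, where 3 matches overlap).
B2m: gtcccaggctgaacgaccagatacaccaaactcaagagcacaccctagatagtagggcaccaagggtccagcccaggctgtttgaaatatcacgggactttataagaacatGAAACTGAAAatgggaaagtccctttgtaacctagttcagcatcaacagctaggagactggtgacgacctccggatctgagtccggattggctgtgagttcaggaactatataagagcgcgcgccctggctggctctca
Rsad2: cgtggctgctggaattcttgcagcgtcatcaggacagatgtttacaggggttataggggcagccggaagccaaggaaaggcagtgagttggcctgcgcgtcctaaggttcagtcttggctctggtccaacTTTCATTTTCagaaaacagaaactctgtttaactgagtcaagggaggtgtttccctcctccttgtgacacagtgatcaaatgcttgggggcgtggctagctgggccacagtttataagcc
Ifit3: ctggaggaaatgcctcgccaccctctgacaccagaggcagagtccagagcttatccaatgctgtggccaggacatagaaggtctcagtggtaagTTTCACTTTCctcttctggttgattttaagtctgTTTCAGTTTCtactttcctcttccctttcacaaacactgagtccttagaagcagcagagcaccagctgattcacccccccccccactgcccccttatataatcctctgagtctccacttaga
Isg15: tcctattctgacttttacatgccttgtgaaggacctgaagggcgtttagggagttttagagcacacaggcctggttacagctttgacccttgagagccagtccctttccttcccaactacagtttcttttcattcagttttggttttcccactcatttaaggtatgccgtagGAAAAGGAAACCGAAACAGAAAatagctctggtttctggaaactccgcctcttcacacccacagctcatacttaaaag
A match is a description of letters and not a measured binding site. Of 9 other motifs searched in the same way for 6 lists, the cell cycle element CHR (TTTGAA) was in 77.8% of the 27 mitosis promoters and 17.9% of all, the E box CACGTG in 33.3% of 24 lysosome promoters and 7.15% of all, and the HNF1 motif GTTAAT in 32.1% of 28 serum promoters and 7.1% of all. Not every motif was more frequent in a list than in all promoters. In the same 28 serum promoters, the motif named for factors such as Gata4 was in 7.14%, against 11.2% of all. The HNF4 motif was in 0% of them and in 0.475% of all, too rare for 28 promoters to tell.

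Ribosomal protein genes and most nuclear genes of oxidative phosphorylation fell. All 25 cytosolic ribosomal protein genes tested were lower (median -0.59), from Rps14 (-0.26 ± 0.08) to Rps2 (1465 and 1369 to 632 and 719 CPM; -1.07 ± 0.08); the highest CPM were those of Rpl4 (2614 and 2485 to 1686 and 1917 CPM) and Rpl13 (1886 and 1759 to 1097 and 1240 CPM). Of 26 nuclear genes of oxidative phosphorylation 23 were lower and 0 higher (median -0.34), with Atp5b, the catalytic subunit of ATP synthase, at 1782 and 1757 CPM at day 6 and 1414 and 1446 CPM at day 10 (-0.31 ± 0.07), Atp5a1 at 939.7 and 914 CPM at day 6 and 714 and 756 CPM at day 10 and Ndufa1 having the largest fall (-0.60 ± 0.14). Cox4i1 and Sdhd were among the 3 that did not pass. By exon length, Ndufa1 (419 bases) was in the shortest class of all genes, which had a median log2 change of -0.17. Rps2 (1830 bases), Rpl4 (2007) and Rpl13 (2595) were in the next class, with a median of -0.05. Atp5a1 (3135) and Atp5b (4237) were in the middle class, with a median of -0.01. The part of length in the lists' changes was not tested. With library totals alone the medians were -0.62 for the ribosomal and -0.36 for the oxidative phosphorylation list.

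Mitotic genes fell slightly. Of 30 tested, 16 were lower and 2, Cdk1 (0.16) and Cenpe (0.19), higher (median -0.21). Cenpa, the centromeric histone, had 217 and 242 CPM at day 6 and 126 and 142 CPM at day 10 (-0.78 ± 0.07, adjusted p = 2.82e-09). Mki67, the antigen of cycling cells, did not pass (151 and 139 to 172 and 142 CPM; 0.12 ± 0.10, adjusted p = 0.355), nor did Top2a (716 and 718 to 749 and 748 CPM) or Cdc20 (320.1 and 308 to 325 and 364 CPM), which was called higher without day 10 replicate 1 (adjusted p = 0.0391). Of 15 CDK inhibitors, genes of cell cycle exit and D-type cyclins, 9 were higher, the cyclins Ccnd1 and Ccnd2 among them. Lower was 1, Rbl2 (-0.37), and the median was 0.67. Cdkn1a, encoding the inhibitor p21, stood at 245 and 221 CPM at day 6 and 437 and 414 CPM at day 10 (0.87 ± 0.07, adjusted p = 2.96e-10). Cdkn1c, the imprinted inhibitor p57, had 8.42 and 8.41 CPM at day 6 and 21.1 and 27.7 CPM at day 10 (1.53 ± 0.15, adjusted p = 5.47e-09). Of the cyclins on the list, Ccnd2 went from 49.5 and 45.2 to 149.5 and 143 CPM and Ccnd1 from 14.3 and 12.6 to 32.4 and 37.3 CPM, while Ccnd3, with 358 and 361 to 317 and 345 CPM, did not pass. The antiproliferative gene Btg2 went from 322 and 335 to 401 and 359.6 CPM; it was not called with library totals or with day 10 replicate 1 or either day 6 library left out (adjusted p up to 0.314). The p53 targets Ccng1 (669 and 605 to 786 and 726 CPM) and Mdm2 (332 and 324 to 406 and 380.3 CPM) had the highest CPM of the next list, and both rose, Ccng1 not without day 10 replicate 1 (adjusted p = 0.0728) or day 6 replicate 2 (0.157). Of 20 p53 targets and apoptosis genes 12 were higher (median 0.26), with Perp, a desmosomal p53 target, at 49.2 and 46.5 CPM at day 6 and 209 and 225 CPM at day 10 (2.18 ± 0.08, adjusted p = 7.46e-17), and 4 were lower, among them Trp53 itself (-0.29), Trp53inp1 (-0.32) and Bbc3 (-0.42). Cdk1 lost its call in 9 and Cenpe in 6 of 13 alternatives, and Trp53inp1 and Rbl2 lost theirs without single libraries (day 6 replicate 1 for both, among others). Without day 6 replicate 1, 2 p53 targets were called lower.

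Markers of other cell types gave mixed pictures. Of 23 cardiac muscle genes 10 were higher and 3 lower (median 0.36). Mybpc3, myosin-binding protein C of heart, went from 34.8 and 33 to 240.0 and 239 CPM (2.82 ± 0.15), Nppb, a natriuretic peptide, from 9.28 and 7.65 to 61.7 and 68.3 CPM (2.93 ± 0.13) and Myh7, a slow myosin heavy chain, from 13.7 and 13 to 47.3 and 66.8 CPM. The light chain gene Myl3, with the highest CPM of the list, went from 137 and 144 to 179 and 232 CPM. The cardiac regulators Nkx2-5 (0.73 and 0.409 to 0.313 and 0.161 CPM) and Tbx5 (0.0859 and 0 to 0 and 0.0535 CPM), the atrial light chain Myl7 (1.93 and 2.63 to 1.98 and 3.64 CPM) and cardiac actin Actc1 (32 counts at day 6 and 5 at day 10) were at low levels on both days. Myl4 (-2.04) and Tnni3 (-1.11) were the other lower members, and all 3 lower members lost the call in at least 1 fit with a library left out: 1 cardiac gene was called lower without day 10 replicate 2 and 0 without day 6 replicate 1. Egfl7 had the highest CPM of the endothelial genes and fell (40.5 and 40.9 to 31.4 and 34.7 CPM), but not without day 10 replicate 1 (adjusted p = 0.108). Among 16 endothelial genes 5 were higher and 7 lower (median -0.77): Cdh5, VE-cadherin, went from 0.988 and 0.817 to 11.2 and 16.9 CPM, Tek from 4.21 and 4.14 to 26.1 and 35.8 CPM, Kdr from 1.93 and 2.16 to 11.9 and 16.2 CPM, Flt1 from 20.8 and 21 to 41.9 and 36.4 CPM and Esam from 3.09 and 4.09 to 6.47 and 8.94 CPM, while Pecam1 (11.8 and 9.87 to 2.92 and 4.12 CPM), Eng (13.2 and 10.6 to 3.81 and 4.28 CPM) and Robo4 (71 counts at day 6 and 5 at day 10) fell; without day 10 replicate 1, 4 endothelial genes were called lower. Of 18 neuronal genes 7 were lower and 0 higher (median -0.69, or -0.62 with genes at 0 counts set to the floor). The neurofilament genes Nefm (29.2 and 25.6 to 5.22 and 7.01 CPM; -2.17 ± 0.14) and Nefl (13.6 and 11.3 to 3.45 and 2.89 CPM; -1.98 ± 0.15) were the only neuronal members above 10 CPM in either day, and Rbfox3, called lower except without day 6 replicate 1 (adjusted p = 0.0567), had 7 and 3 counts at day 6 and 0 and 0 at day 10.

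PRC2 subunits changed by small amounts, in both directions. Eed, the tagged gene of this line, did not pass, with 46.3 and 39.1 CPM at day 6 and 46.9 and 42.8 CPM at day 10 (0.06 ± 0.09, adjusted p = 0.573); counts do not distinguish its tagged sequence. Ezh2, the main methyltransferase, had 134 and 135 CPM at day 6 and 88.1 and 91.1 CPM at day 10 (-0.59 ± 0.07, adjusted p = 1.09e-07) and Suz12 331 and 319.8 CPM at day 6 and 279 and 261 CPM at day 10 (-0.27 ± 0.08, adjusted p = 0.00664). Of 13 subunits and partners 5 were lower, the others being Mtf2 (-0.68), Jarid2 (-0.46) and Rbbp7 (-0.22), and 5 were higher, namely Rbbp4 (0.24), Aebp2 (0.27), Epop (0.30), Phf1 (0.48) and Eloa (0.20). Among these, Suz12, Rbbp7, Rbbp4, Aebp2, Phf1 and Eloa each lost the call when at least 1 of the 4 libraries was left out, and 1 to 3 subunits were then called higher. The Hox genes remained weakly expressed: of 30 tested, 4 were higher and 1 lower (median 0.04), and their sum was 37.8 and 37.1 CPM at day 6 and 43.0 and 45.0 CPM at day 10. Hoxb4 (8.12 and 7.47 to 11.5 and 11.5 CPM) was the only one above 10 CPM on either day. Hoxb9 went from 1.72 and 3.21 to 5.17 and 6.05 CPM and Hoxc9 from 0.515 and 0.525 to 2.09 and 0.535 CPM. Hoxc12 had 0 and 0 counts at day 6 and 2 and 4 at day 10. Hoxa3, the lower member, had 27 counts over both day 6 libraries and 8 over both day 10 libraries. It lost its call in 4 of 12 alternatives, DESeq2 among them (adjusted p = 0.0706). With any of the 4 libraries left out, 1 or 2 Hox genes were called higher.

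Imprinted genes, which are expressed from the allele of 1 parent, split evenly: 10 of 30 were higher and 9 lower (median 0.16; 5 lower without day 10 replicate 1). These shares, 33.3% higher and 30% lower, stood beside 21.2% and 22.9% of all genes tested. Of the 30 imprinted genes, 21 had at least 10 CPM in the higher day. Autosomal genes of that level had similar shares, 31.2% higher and 29.1% lower. H19 and Igf2 are neighbours that share enhancers. H19 was among the most abundant transcripts and did not pass (0.07 ± 0.12, adjusted p = 0.704), whereas Igf2 stood at 0.558 and 1.28 CPM at day 6 and 0.783 and 0.749 CPM at day 10. Dlk1, a Notch-like ligand, went from 21.1 and 24.9 to 99.5 and 124 CPM (2.29 ± 0.11), while Meg3 of the same cluster did not pass (-0.19). Phlda2, a growth-limiting gene of placenta and yolk sac, went from 28.5 and 27.7 to 123 and 122 CPM (2.12 ± 0.12). Magel2, called lower except without day 10 replicate 1 (adjusted p = 0.0541), had 5 and 3 counts at day 6 and 0 and 0 at day 10. Igf2r, the scavenging receptor for IGF2 and for lysosomal enzymes, went from 40.0 and 34.5 to 13.3 and 13.4 CPM (-1.49 ± 0.12), and its antisense neighbour Airn from 6.57 and 5.49 to 17.7 and 16.7 CPM; the counting did not use strand, so reads where they overlap cannot be told apart.

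X-linked genes fell more often than others, a result chosen after its values were seen. Of 702 X-linked genes tested, 78 were higher (11.1%) and 244 lower (34.8%), with a median log2 change of -0.29, against 21.7% higher, 22.5% lower and a median of -0.03 for 18345 autosomal genes. The lowest autosomal median was -0.08, on chromosome 13. Among genes of at least 10 CPM in the higher day, 151 of 321 on the X were lower (47%; median -0.22) and 2709 of 9301 on autosomes (29.1%; median 0.00). X-linked genes summed to 4.0 per 100 autosomal CPM in both day 6 libraries and to 3.50 and 3.32 at day 10. Earlier FLAG-WT libraries had lower sums, 2.7 and 2.73 at day 0 and 3.29 and 3.32 at day 2. Day 6 was thus the highest of the FLAG-WT days, and day 10 lay near day 2. Of 17 windows of 10 megabases, which hold the 321 genes of at least 10 CPM, 16 had a negative median; the exception held 4 genes, and 3 of the negative windows held 1 to 3. Xist, the RNA that coats an inactive X chromosome, was at 28.4 and 29.2 CPM at day 6 and 29.3 and 33.9 CPM at day 10 and did not pass (0.13 ± 0.11, adjusted p = 0.353). X-linked genes called lower numbered 189 to 263 (the latter with library totals alone) over the alternatives tried.

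The day 6 to day 10 change of FLAG-WT was then compared with that of K19R embryoid bodies of the same days. In K19R, 11170 genes changed (58.5%; 33.4% higher and 25.2% lower), and the change differed between the lines for 7440 genes (39%), 2790 with the FLAG-WT change above that of K19R (14.6%) and 4650 below it (24.4%). The lines also differed in sex-linked transcripts: the Y-linked Eif2s3y was at 4.28 to 4.71 CPM in the FLAG-WT libraries of days 6 and 10 and at 45.8 to 55.1 CPM in those of K19R, and Xist at 28.4 to 33.9 CPM against 1.61 to 3.2 CPM. The substitution and these differences between the lines cannot be told apart. X-linked genes did not fall more often than autosomal genes by a similar margin in K19R. There, 26.2% of X-linked and 25.2% of autosomal genes tested were lower at day 10, against 34.8% and 22.5% in FLAG-WT. The median log2 change in K19R was 0.043 for X-linked and 0.075 for autosomal genes. Endodermal products rose more widely in K19R: of 30 serum and lipoprotein genes 28 were higher at day 10 than at day 6. The FLAG-WT change was below that of K19R for 24 and above it for 0. Afp and Apoe had the highest CPM of the list in FLAG-WT. Their day 6 means were 2423 and 2918 CPM in K19R and 6364 and 12150 CPM in FLAG-WT. Their day 10 means were 10310 and 6166 CPM in K19R and 22270 and 10800 CPM in FLAG-WT. For Apob the day 10 mean was 3286 CPM in K19R and 2321 CPM in FLAG-WT. Ttr was at 266 to 1921 CPM in K19R (means of 2; 2.85 ± 0.28), and the difference between the changes was -2.96 ± 0.38, adjusted p = 5.75e-07. Of 24 lysosomal genes 22 rose from day 6 to day 10 in K19R and for 22 the FLAG-WT change was below. Lgmn went from 1022 to 1760 CPM in K19R (difference -1.83 ± 0.12, adjusted p = 1.32e-11). For uptake genes the FLAG-WT change was below that of K19R for 11 of 14 and above it for 1, with Cubn at 1670 to 1635 CPM in K19R (difference -1.78 ± 0.33, adjusted p = 0.000108). Of the interferon genes, 14 rose in FLAG-WT and all 20 in K19R, and the FLAG-WT change was below for 10 and above for 3. Of 30 Hox genes, 22 rose from day 6 to day 10 in K19R, and the FLAG-WT change was below for 13. Afp, Hpx, Kng1 and Vtn rose in both lines, and their changes did not pass a test of difference (-0.28, -0.60, 0.00 and 0.71).

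Immediate early genes and p53 targets went the other way. For the former, the FLAG-WT change was above that of K19R for 11 of 15, and 11 fell from day 6 to day 10 in K19R. Cyr61 went from 529 to 286 CPM in K19R (difference 2.40 ± 0.12, adjusted p = 8.81e-14). For p53 targets the FLAG-WT change was above for 14 of 20, and 13 fell in K19R. Perp went from 54.9 to 35.2 CPM in K19R (difference 2.82 ± 0.11, adjusted p = 7.11e-16). Ribosomal protein genes fell in both lines, 25 of 25 in each, and the change differed for 5, each with the smaller fall in FLAG-WT. Sox2 went from 104 to 103 CPM in K19R (difference -3.29 ± 0.19, adjusted p = 7.83e-13). The largest differences with FLAG-WT above were of Vgf (4.53), a neuropeptide precursor, skeletal actin Acta1 (4.50), the sodium channel subunit Scn3b (3.89), the matrix protein Thbs1 (3.84), the RAS effector Rin1 (3.84) and the semaphorin Sema3c (3.82). Those with FLAG-WT below were Fxyd2 (-6.04), a sodium pump regulator, Mmp9 (-5.01), a matrix protease, Has2 (-4.89), a hyaluronan synthase, the WNT antagonist Sfrp5 (-4.80), Enpp2 (-4.50) and the prolactin receptor Prlr (-4.38). In FLAG-WT, Mmp9 had only 41 counts over both day 6 libraries and 10 over both day 10 libraries. Its ratio was 0.261 (95% interval 0.116 to 0.529, counting error only), and it lost its FLAG-WT call in 2 of 13 alternatives. Has2 had 60 and 4 counts there, a ratio of 0.0712 (0.0188 to 0.192). Fxyd2 shows the pattern in levels, with 80.6 and 82.6 CPM at day 6 and 9.24 and 14 CPM at day 10 in FLAG-WT and 4.68 to 43.6 CPM in K19R.

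**Figure D5:**
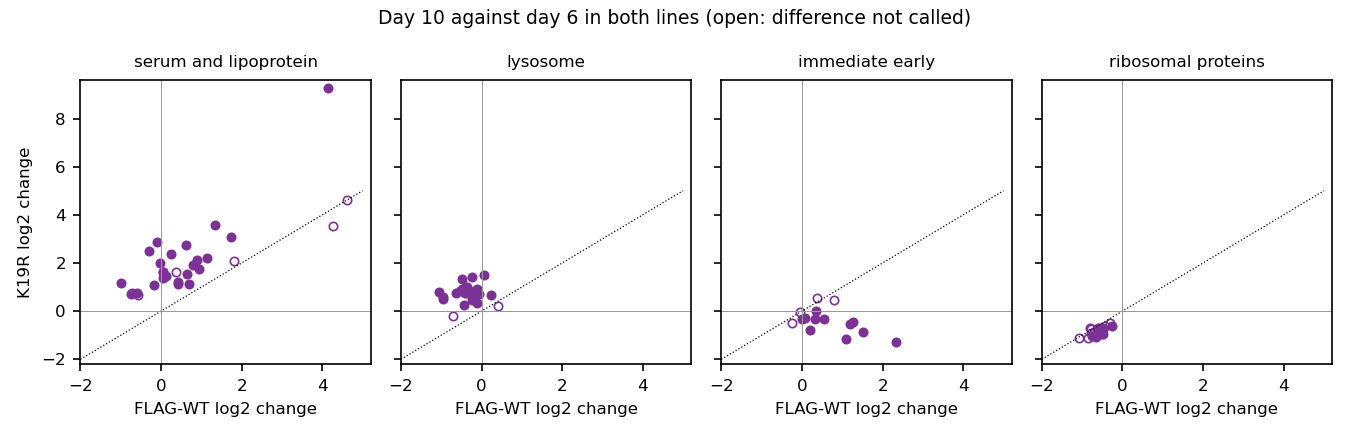
Log2 change from day 6 to day 10 in FLAG-WT (horizontal axis) and in K19R (vertical axis) for the tested members of 4 gene lists; filled points differ between the lines at an adjusted p below 0.05, open points did not pass, and the dotted line marks equal change. Most serum and lysosomal genes lie above the line and most immediate early genes below it, and ribosomal protein genes are negative on both axes.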

How the data were processed

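RNA-seq counts of 16 FLAG-EED libraries, 8 groups of 2, were used. The deposited values are counts, not normalized, of the read pairs assigned to each gene name, made by the authors with featureCounts 1.6.3 on exons of GENCODE vM19 (GRCm38), unstranded, per the file headers. Reads were trimmed with Trim Galore 0.6.0 and aligned with STAR 2.7.0c, per the submitters' processing notes. The separate file of untagged Wildtype stem cells was not used here.

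Groups were taken from the sample titles. In R 4.3.3, edgeR 4.0.16 kept 19092 of 54429 genes (filterByExpr, minimum count 10, total 15), scaled them by TMM and fitted 1 quasi-likelihood model to all 16 libraries (8 residual degrees of freedom, common biological coefficient of variation 0.062). Tests were two-sided, with Benjamini-Hochberg adjustment over all genes tested and a threshold of 0.05. Errors of fold changes are standard errors. The model was tested on simulated data with 200 changed genes. Alternatives were RLE size factors, library totals, no filter, a stricter filter, DESeq2 1.42.0, smaller sets of libraries, a replicate block and each library left out.

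Genes named are the 12 largest rises and 12 largest falls among called genes with at least 10 CPM in the higher day, non-overlapping libraries and no predicted name; in each list the largest called rise and fall and the 2 most abundant members; the 10 most abundant genes; 20 genes of the endoderm, PRC2, pluripotency and the cell cycle; and the 6 largest differences between lines in each direction. Members outside this rule, among them those completing a count of 5 or fewer, the X-linked genes and the interferon element, were chosen after their values were seen, as was printing only promoters with a match. The comparison and the gene lists were chosen with earlier results of these data known. Promoter sequences are from RefSeq (GRCm38.p6). A few genes that the rule names are not reported here.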

Additional observations from a re-analysis of the deposited data

Results flagged for a closer look

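The day 6 to day 10 change differed between FLAG-WT and K19R embryoid bodies for 164 of the 228 genes named here (edgeR quasi-likelihood test of the difference, adjusted p below 0.05), beside 39% of all genes tested. The genes were named for their values or lists, not drawn at random. Each value is the log2 change in FLAG-WT minus that in K19R, so a negative value means that the FLAG-WT change lay below the K19R change. Both lines had 2 libraries per day, and they also differed in Y-linked and Xist transcripts, whose part in these differences was not tested.

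In 27 of these genes the day 6 to 10 change was called lower in FLAG-WT and higher in K19R. Of the serum and lipoprotein genes, the difference was -2.16 for Apob, -1.46 for Mttp and -1.37 for Amn. Of the endoderm regulator genes, the difference was -2.12 for Sox7, -2.10 for Cited1 and -2.02 for Pdgfra. Of the uptake and lysosome genes, the difference was -1.83 for Ctsl, -1.83 for Lgmn, -1.54 for Glb1, -1.45 for Ctsc and -1.12 for Dab2. Of the other named genes, the difference was -6.04 for Fxyd2, -5.01 for Mmp9, -4.89 for Has2, -4.80 for Sfrp5, -4.35 for Lrrc19, -4.08 for Plac1, -4.06 for Zscan4c, -1.99 for Eomes and -1.06 for Rhox5. The FLAG-WT calls of Mmp9 and Has2 rested on few counts (41 to 10 and 60 to 4), and that of Mmp9 was lost in 2 of 13 alternatives. Of the complement and gut genes, the difference was -4.46 for Fabp1. Of the Hox and imprinted genes, the difference was -3.60 for Hoxa3, whose FLAG-WT call was lost in 4 of 12 alternatives. Of the ribosome and respiration genes, the difference was -0.94 for Ndufa1. Of the pluripotency and epiblast genes, the difference was -2.21 for Nodal. Of the parietal endoderm and basement membrane list, the difference was -3.06 for Vim and -2.73 for Pth1r. Of the PRC2 genes, the difference was -0.86 for Rbbp7.

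Another 22 were called higher in FLAG-WT and lower in K19R. Differences in the other named group were 0.79 for Actg1, 1.14 for Sqle, 3.84 for Rin1, 3.84 for Thbs1, 3.89 for Scn3b, 4.50 for Acta1 and 4.53 for Vgf. Differences in the immediate early group were 0.99 for Btg2, 1.74 for Fos, 2.26 for Nr4a1, 2.40 for Cyr61 and 3.62 for Egr3. Differences in the cell cycle and p53 group were 0.42 for Cdk1, 0.43 for Ccng1, 0.66 for Mdm2, 2.06 for Ccnd1 and 2.82 for Perp. Differences in the BMP, TGF-beta and ERK group were 1.57 for Dusp5 and 2.87 for Ctgf. Differences in the complement and gut group were 0.60 for Epcam. Differences in the cardiac, endothelial and neuronal group were 2.96 for Myh7. Differences in the PRC2 group were 0.49 for Rbbp4.

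The next 64 were called in the same direction in both lines, with changes of different size. For other named genes they were -3.29 for Foxh1, -3.03 for Ptgds, -1.64 for Adam23, 0.31 for Eef1a1, 0.38 for Fn1, 2.20 for Serpinb6b, 2.73 for Ptgs2 and 3.07 for Abcc3. For other named genes they were -3.26 for Apln, -2.32 for Wnt3, -1.34 for Gng2, 0.36 for Krt8, 0.76 for Ndrg1, 2.20 for Krt7 and 2.97 for Mucl3. For serum and lipoprotein genes they were -2.21 for Apoa2, -1.24 for Fga, -1.11 for Fgb and -0.90 for Fgg. For interferon genes they were -1.21 for Usp18, -1.17 for Rsad2, -0.47 for B2m and 1.38 for Ifi27. For cell cycle and p53 genes they were 0.70 for Ccnd2 and 0.87 for Bbc3. For BMP, TGF-beta and ERK genes they were -0.62 for Id2, -0.61 for Bmp2, 0.52 for Spry1, 0.78 for Id1 and 1.53 for Tgfb2. For Hox and imprinted genes they were -1.02 for Hoxb4, -0.63 for Igf2r, 0.55 for Dlk1, 1.09 for Cdkn1c and 1.48 for Phlda2. For basement membrane genes they were -0.69 for Col4a1 and -0.51 for Nid2. For uptake and lysosome genes they were -0.42 for Ctsd. For pluripotency and epiblast genes they were -1.95 for Dppa4, -1.65 for Pou5f1, -1.38 for Dnmt3b, -1.31 for Klf4, -1.06 for Dppa5a, -0.45 for Tfcp2l1, 0.38 for Trim71 and 0.69 for Socs3. For PRC2 genes they were -1.47 for Epop, -0.42 for Mtf2 and -0.39 for Eloa. For cardiac, endothelial and neuronal genes they were -1.69 for Flt1, -1.50 for Nefl, -0.67 for Myl3, 1.02 for Mybpc3, 1.49 for Kdr and 1.92 for Tek. For endoderm regulator genes they were -2.31 for Otx2, -0.96 for Gata4 and -0.68 for Foxa2. For complement and gut genes they were -2.85 for Tff3, -1.98 for Itih2, -1.15 for Vil1 and 2.30 for Krt20. For ribosome and respiration genes they were 0.34 for Rps14 and 0.45 for Rpl4.

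A further 28 were called in K19R and not in FLAG-WT. Values of serum and lipoprotein genes came to -2.96 for Ttr, -1.33 for Apoa1 and -1.25 for Apoe. Values of interferon genes came to -1.05 for Oas1a, -0.96 for Irf1 and -0.73 for Bst2. Values of cell cycle and p53 genes came to 0.27 for Ccnd3, 0.38 for Mki67, 0.75 for Top2a and 0.90 for Cdc20. Values of complement and gut genes came to -1.78 for Cdx2. Values of pluripotency and epiblast genes came to -1.53 for L1td1, -0.51 for Stat3, -0.36 for Dnmt3a and -0.35 for Sall4. Values of BMP, TGF-beta and ERK genes came to -0.53 for Etv5. Values of endoderm regulator genes came to -1.91 for Hnf4a and -1.54 for Gata6. Values of Hox and imprinted genes came to -2.19 for Igf2 and -0.76 for H19. Values of immediate early genes came to 0.34 for Klf6 and 0.34 for Jun. Values of cardiac, endothelial and neuronal genes came to -4.34 for Nkx2-5 and 2.38 for Myl7. Values of other named genes came to -4.38 for Prlr, 1.01 for Xist and 3.82 for Sema3c. Values of basement membrane genes came to -0.84 for Sparc.

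The remaining 23 were not called in K19R. Among PRC2 genes, FLAG-WT minus K19R gave -0.65 for Ezh2 and 0.30 for Aebp2. Among other named genes, FLAG-WT minus K19R gave -4.50 for Enpp2, -3.61 for Bhmt2 and -3.22 for Hormad1. Among cell cycle and p53 genes, FLAG-WT minus K19R gave -0.49 for Trp53inp1 and 0.99 for Cdkn1a. Among ribosome and respiration genes, FLAG-WT minus K19R gave -0.29 for Cox4i1. Among uptake and lysosome genes, FLAG-WT minus K19R gave -1.78 for Cubn and -0.58 for Lrp2. Among BMP, TGF-beta and ERK genes, FLAG-WT minus K19R gave 0.33 for Egr1, 0.46 for Epha2, 1.10 for Myc and 2.72 for Fosl1. Among cardiac, endothelial and neuronal genes, FLAG-WT minus K19R gave -3.99 for Robo4, -1.81 for Pecam1, -1.28 for Eng and 3.16 for Nppb. Among pluripotency and epiblast genes, FLAG-WT minus K19R gave -3.29 for Sox2, -3.03 for Fgf5, -2.44 for Esrrb, -1.22 for Nanog and -0.83 for Lin28a.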

How the results depend on the processing

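The 8432 calls between day 6 and day 10 numbered 7358 to 8587 in the other fits of the same libraries: 8450 with RLE size factors, 8488 with library totals, 8146 without a filter, 8310 with a stricter one, 7873 in DESeq2, 7358 from the 4 libraries alone and 8587 from the 8 FLAG-WT libraries. With 1 of the 4 libraries left out they ranged from 6854 to 7483, and calls of at least 2-fold from 2337 to 2516; the lone library of a day is then assumed to vary like the other groups. Leaving out FLAG-WT day 0 replicate 2, added after seeing the data, gave 8298 and 2712. K19R calls ranged from 9490 to 10019 and calls of a difference between lines from 6355 to 7282 with 1 library left out. The replicate numbers are not said to pair cultures: with the replicate block 8358 genes were called, and the deviations of same-numbered libraries of days 6 and 10 correlated at 0.09 across genes. Of the 228 genes named, 190 were called, 152 of these kept the call in every alternative, and 38 lost it in at least 1. Another 11 uncalled genes were called in at least 1, and 0 reversed. The day 6 against day 2 step had 13855 calls, 49.1% of them higher, or 34.6% with library totals, where the median log2 change moved from -0.05 to -0.45. Of the differences between lines 37.5% were higher, and 44.6% with RLE size factors. In FLAG-WT day 10 against day 6 the upward share was lowest, 43.9%, without day 6 replicate 2. Genes below 10 counts have folds with wide counting error, and 2 libraries per day limit the precision of every change.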

Other observations

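Other gene groups are given beside the shares of all genes tested, 21.2% higher and 22.9% lower. Of 19 surface ectoderm and epithelial genes 9 were higher and 4 lower (median 0.47). Krt8 and Krt18, the paired keratins of simple epithelia, went from 1374 and 1330 to 2379 and 2431 CPM and from 2323 and 2237 to 3370 and 3868 CPM (0.83 ± 0.07 and 0.67 ± 0.12), and Krt7, a keratin of ductal and trophoblast epithelia, from 23.1 and 18.9 to 134 and 117 CPM (2.57 ± 0.16). Among 22 genes of fibroblasts and mesenchyme 6 were higher and 3 lower (27.3% and 13.6%; median 0.24). Fn1, the matrix protein fibronectin, which endoderm also makes, had 1857 and 2120 CPM at day 6 and 3614 and 4015 CPM at day 10 (0.94 ± 0.11, adjusted p = 8.14e-08), whereas the fibrillar collagen gene Col5a1 did not pass (20.4 and 19 to 15.2 and 19.9 CPM). Primitive streak genes had 6 of 18 lower and 0 higher (median -1.11): Wnt3 went from 5.41 and 5.08 to 0.47 and 0.642 CPM (-3.23 ± 0.30) and Eomes from 16.8 and 12.9 to 8.25 and 5.73 CPM (-1.10 ± 0.17).

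Germ cell genes were lower for 11 of 16 and higher for 2 (median -1.20). The meiotic gene Hormad1 went from 3.05 and 2.39 to 0.418 and 0.214 CPM, and the X-linked homeobox gene Rhox5 had 629.6 and 601 CPM at day 6 and 474 and 495 CPM at day 10 (-0.34 ± 0.07, adjusted p = 0.000209). Kit, a receptor also found outside the germ line, rose from 110.4 and 113 to 334 and 361 CPM (1.64 ± 0.08). Of 10 genes of the 2-cell-like state 7 were lower and 1 higher (median -2.50); Zscan4c, a member of a family of near-identical copies whose reads can be split uncertainly, went from 4.55 and 3.97 to 0.679 and 0.749 CPM. Cholesterol synthesis genes were lower for 13 of 23 and higher for 2 (median -0.37). Among the latter was Sqle, squalene epoxidase (78.6 and 78.3 to 103 and 131 CPM). Of 24 genes of hypoxia and glycolysis 12 were lower and 4 higher (median -0.23), with Gapdh at 2233 and 2112 CPM at day 6 and 1500 and 1609 CPM at day 10 (-0.48 ± 0.07, adjusted p = 4.66e-06) and Ndrg1, a hypoxia-induced gene, higher (52.5 and 53 to 100.3 and 156 CPM). For DNA replication genes, 6 of 30 were higher and 7 lower (20% and 23.3%, median 0.01), close to the shares of all genes. Of the 30, 28 had at least 10 CPM in the higher day. Autosomal genes of that level had larger shares, 31.2% higher and 29.1% lower.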
